A study of Mus musculus with 9 samples.

Results

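The genes of MHC class I presentation and of the proteasome were followed by RNA-seq in mouse bone marrow-derived dendritic cells (BMDC) exposed to lysophosphatidic acid (LPA). The set held 35 genes: 8 class I heavy chain genes, the light chain gene B2m, 5 genes of peptide transport, loading and trimming, the transactivator gene Nlrc5, 3 inducible catalytic subunits of the proteasome, 3 genes of the PA28 activator and 14 genes of the constitutive 20S core. Each gene was taken as the row of the count table whose transcript identifiers mapped to its symbol. Each symbol had 1 such row among the 38887 of the table. All 35 genes passed the filter on low counts and were among the 14363 genes tested. The lowest count of any of them in any library was 789, for H2-M3, against a filter minimum of 10.

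BMDC are dendritic cells, which take up and present antigen, differentiated from marrow precursors in a dish. LPA is a lipid messenger sensed by G protein-coupled receptors. The groups were untreated cells (3 libraries), cells treated with LPA for 2 h (3 libraries) and cells treated with LPA for 6 h (3 libraries), and the series title places them in work on LPA from ovarian tumors and type I interferon. The labels give no mouse strain, LPA dose, vehicle or harvest time of the untreated cells. Whether the replicates are separate animals, cultures or repeats of 1 culture is not stated, so a p-value here covers the library-to-library spread alone, which may be technical.

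Proteins in the cytosol are cut into peptides by the proteasome, a barrel of stacked rings whose inner beta rings hold the cutting sites and whose outer alpha rings control entry. The TAP transporter carries the peptides into the endoplasmic reticulum, where they are loaded onto a class I heavy chain paired with beta-2 microglobulin and shown to CD8 T cells. Interferons induce an alternative set of catalytic beta subunits, which take the place of the constitutive ones in newly built particles to form the immunoproteasome. Dendritic cells are known to carry immunoproteasomes without stimulation.

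Libraries held 29628817 to 84596899 counts. The labelled cell type was checked against its markers. All 10 dendritic cell markers were tested, with summed levels of 6969 to 8036 CPM (counts scaled to equal library size) in untreated libraries, 7479 to 8228 at 2 h and 6470 to 7101 at 6 h. At 6 h 4 of the 10 were lower than untreated (Itgax, H2-Ab1, Dpp4 and Batf3) and Ccr7 was higher. The 9 macrophage and monocyte markers, some of which BMDC cultures also express, summed to 3911 to 3942, 4184 to 4260 and 4173 to 4366 CPM. Their members moved in opposite directions at 6 h, with 4 lower (Adgre1, C1qa, C1qb and C1qc) and 3 higher (Csf1r, Cd68 and Mertk), and Csf1r alone rose from a mean of 2251 to 2629 CPM. The part of these marker changes in the results was not tested. Markers of granulocytes summed to at most 6.42 CPM and those of T and NK cells to at most 0.48 CPM, with Cd3g and Ncr1 at 0. The 7 B cell and plasmacytoid markers summed to 266 to 302 CPM in untreated libraries, 238 to 304 at 2 h and 148 to 171 at 6 h. Nearly all of that sum was Bst2, also an interferon-stimulated gene, with a mean of 284 CPM untreated, 265 at 2 h and 160 at 6 h. Its part in the results was likewise not tested. In bulk samples fewer cells of a type and less RNA per cell cannot be told apart. Replicate 2 at 2 h stood apart from the other 2 h libraries on the first principal component (9.74 against -4.67 and -12.4), towards the 6 h libraries (35.7 to 40.6). It was the lowest 2 h library for 21 of the 26 genes that were lower at 6 h than at 2 h, so its effect is given below where it changes a count.

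At 6 h most of the pathway was lower than in untreated cells, while the classical heavy chains and the light chain were not. Nlrc5 was 2.91-fold lower, the activator gene Psme2 2.07-fold lower and the inducible catalytic gene Psmb10 1.98-fold lower. Of the 20 class I and inducible proteasome genes 14 were lower and 1 was higher, with a median log2 fold change of -0.42. Of the 14 constitutive core genes 11 were lower and 1 was higher, with a median of -0.23. Among all genes tested 25.7% were lower and 26.4% were higher at 6 h, with a median of 0.01. Psme3, which belongs to neither set, was not called. Each of the 2 higher calls, H2-D1 and Psma1, was lost on leaving out single libraries, as given with each gene.

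At 2 h the median changes were smaller, and calls in either set came at about the share of all genes or below it. Of the 20 class I and inducible genes 4 were lower and 0 were higher, with a median log2 fold change of -0.09, while 19.2% of all genes were lower and 19.3% higher. The 4 genes were Nlrc5, Tap1, Tap2 and Psmb9. Of the 14 core genes 1, Psma1, was higher and 0 were lower, with a median of 0.07. Psme3 was lower. The 4 lower calls became 8 without 2 h replicate 1 and stayed at 4 without the outlying 2 h replicate 2, and were 5 with DESeq2 and 6 with a replicate block. The higher call in the core became 3 without untreated replicate 2 and 2 without 2 h replicate 2, and the 0 higher class I and inducible calls became 2 without 2 h replicate 3 and 1 without untreated replicate 1 or 2.

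Between the times both sets moved down, the core from a 2 h level at which none of its genes was lower than untreated. At 6 h 13 of the 20 class I and inducible genes and 13 of the 14 core genes were lower than at 2 h, with medians of -0.30 and -0.29, and 0 of either set were higher. The shares of all genes were 24.4% lower and 24.3% higher. Without 2 h replicate 2 the counts were 12 and 13. Each pair of these comparisons shares a group of libraries, so their values are not independent.

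**Figure D1:**
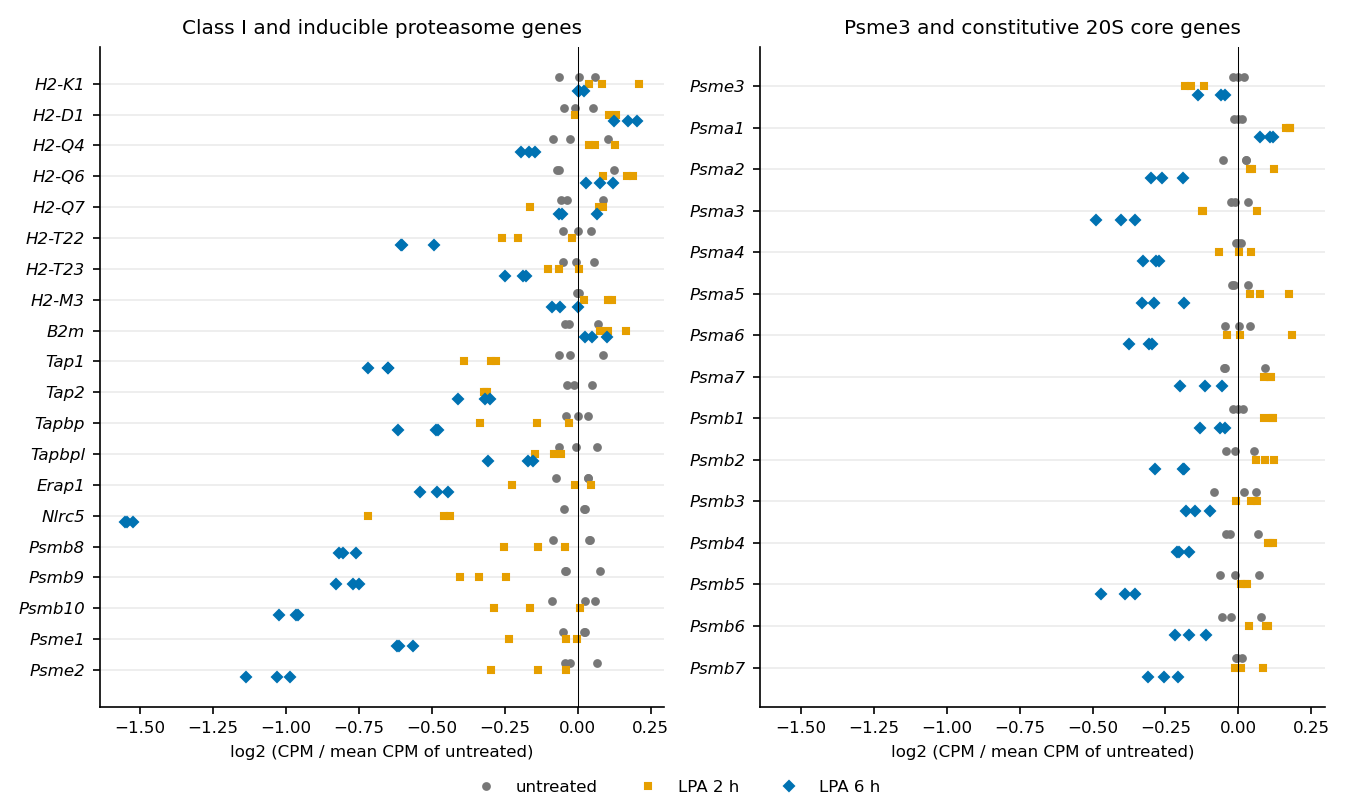
Level of each gene in each of the 9 libraries as the log2 of its CPM over the untreated mean, with class I and inducible proteasome genes on the left and Psme3 and the constitutive 20S core on the right. The 6 h libraries of Nlrc5, Psme2 and the inducible catalytic genes lie farthest to the left, and those of H2-D1 and Psma1 lie to the right of the untreated libraries.

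The heavy chains are the polymorphic chains that hold the peptide. Per kilobase of the principal transcript, B2m stood first of all 35 genes in untreated cells at 3895 ± 168 CPM per kb (SD, n = 3), followed by the classical heavy chain genes H2-D1 at 1329 ± 47.5 and H2-K1 at 1215 ± 51.9. Tapbp, at 297 ± 7.92, and H2-T23, at 303 ± 11.3, came next and lay within their spread of each other. The nonclassical heavy chain genes H2-T22, H2-Q7, H2-Q4 and H2-Q6 lay between 40.7 and 89.3 CPM per kb. H2-M3, whose product presents peptides with a formylated end, had 18.8 ± 0.04 CPM per kb.

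H2-K1 lies at chr17:33996017-34000347 on the minus strand of GRCm38, the assembly that mm10 names, and H2-D1 at chr17:35262730-35267499 on the plus strand. The segments upstream of their RefSeq starts are shown because the heavy chain genes share a pair of elements there that are known to receive NF-kB and interferon signals. Within the 250 bases before each start (RefSeq, GRCm38.p6), both strands were searched for the letters of an NF-kB core, GGGNNTTCC, and of an interferon-stimulated response element (ISRE) in the spacing of class I promoters, GAANNGAAA. The usual ISRE consensus, in which GAAA stands on both sides of a gap of 2 bases, has 1 more base and was searched separately. Capitals mark matches to the first 2, and the ISRE letters lie on the reverse strand.
H2-K1, chr17:34000417-34000470, minus strand: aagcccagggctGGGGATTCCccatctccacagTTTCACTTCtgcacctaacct
H2-D1, chr17:35262911-35262964, plus strand: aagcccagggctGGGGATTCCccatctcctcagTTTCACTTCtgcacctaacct
H2-Q4, chr17:35379432-35379484, plus strand: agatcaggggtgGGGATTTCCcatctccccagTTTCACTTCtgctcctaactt
H2-Q6, chr17:35424665-35424718, plus strand: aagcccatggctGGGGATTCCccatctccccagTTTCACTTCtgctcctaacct
H2-Q7, chr17:35439010-35439062, plus strand: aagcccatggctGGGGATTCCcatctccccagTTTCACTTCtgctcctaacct
H2-M3, chr17:37270100-37270153, plus strand: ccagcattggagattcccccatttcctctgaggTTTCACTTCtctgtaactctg

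Of 32851 RefSeq promoters, 4.98% held the NF-kB letters, 6.31% the class I ISRE letters and 2.98% the ISRE consensus in the same 250 bases. The first 5 genes held the NF-kB and class I ISRE letters, and H2-M3 the class I ISRE letters only. H2-T22 and H2-T23 held neither of these but held the ISRE consensus, as TTTCACTTTC and TTTCTCTTTC on the gene's strand, 191 and 124 bases before the start. At 6 h the 5 genes with NF-kB and class I ISRE letters ranged from -0.17 to 0.17 in log2 fold change. A match of letters is a description and not a bound site.

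H2-K1 had 1971, 2048 and 1880 CPM untreated, 2273, 2084 and 2018 at 2 h and 1967, 1997 and 1971 at 6 h. The 6 h libraries lay inside the untreated range, and the log2 fold changes were 0.11 ± 0.05 (SE) at 2 h and 0.01 ± 0.05 at 6 h, neither called (edgeR adjusted p = 0.117 and 0.902). H2-D1 had 2778, 2900 and 2702 CPM untreated, 3012, 3063 and 2779 at 2 h and 3149, 3045 and 3216 at 6 h. Its 6 h libraries lay above all untreated ones, a log2 fold change of 0.17 ± 0.05 (edgeR adjusted p = 0.0156). That call was lost without untreated replicate 3 (edgeR adjusted p = 0.0715), 6 h replicate 1 (0.0514) or 6 h replicate 3 (0.065).

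B2m, which encodes the light chain that all these heavy chains need for a stable fold, had 3516, 3281 and 3253 CPM untreated, 3760, 3598 and 3534 at 2 h and 3594, 3409 and 3470 at 6 h. The 2 h libraries lay above the untreated ones and the 6 h libraries overlapped them. Neither the 2 h change of 0.12 ± 0.05 nor the 6 h change of 0.06 ± 0.05 was called (edgeR adjusted p = 0.0788 and 0.33).

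H2-T22, a nonclassical gene whose product is a known ligand of gamma delta T cells, changed most among the 8 heavy chains. It had 163, 157 and 152 CPM untreated, 155, 131 and 136 at 2 h and 112, 104 and 103 at 6 h. The 6 h libraries lay below all others, and the log2 fold change was -0.57 ± 0.06 (edgeR adjusted p = 1.05e-05). At 2 h it was not called (-0.16 ± 0.06, edgeR adjusted p = 0.0564), though it was with DESeq2 (0.0417), total counts (0.0355), the replicate block (0.0097) or without 2 h replicate 1 (0.0069). H2-T22 shares 53.5% of its 50-base stretches with other annotated genes, first among them H2-T10, so its counts depend on how shared reads were divided. H2-T23, whose product is recognised by NKG2 receptors of NK cells, fell from 444, 463 and 430 CPM to 375, 391 and 394 CPM at 6 h, a change of -0.20 ± 0.05 (edgeR adjusted p = 0.00278).

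The 3 Q region genes, which share 26.5% to 36.4% of their 50-base stretches with other genes, did not move as a block. H2-Q4 was lower at 6 h by a log2 fold change of -0.17 ± 0.05 (edgeR adjusted p = 0.0147), a call lost without untreated replicate 2 (0.0621) or 6 h replicate 2 (0.054). H2-Q6 (0.08 ± 0.06), H2-Q7 (-0.02 ± 0.07) and H2-M3 (-0.05 ± 0.05) were not called at 6 h. In all, 3 of the 8 heavy chain genes were lower at 6 h, 1 was higher and 4 were not called. Among all genes tested 25.7% were lower and 26.4% higher at 6 h. At 2 h none of the 8 was called, with log2 fold changes from -0.16 to 0.15, against 19.2% lower and 19.3% higher among all genes.

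Nlrc5, which encodes the transactivator that drives class I genes through a multiprotein complex at their promoters, showed the largest change of the 35 genes at both times. It had 96.5, 96.9 and 92.0 CPM untreated, 69.2, 57.8 and 70.2 at 2 h and 32.6, 32.4 and 33.1 at 6 h. The 3 groups did not overlap. The log2 fold change was -0.53 ± 0.06 at 2 h (edgeR adjusted p = 4.4e-05) and -1.54 ± 0.07 at 6 h (edgeR adjusted p = 1.42e-08), and 6 h was lower than 2 h by -1.01 ± 0.07 (edgeR adjusted p = 5.21e-06). Without 2 h replicate 2, the lowest 2 h library, the 2 h change was -0.45.

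Tap1 and Tap2 encode the subunits of the peptide transporter. Tap1 had 122, 132 and 119 CPM untreated, 101, 94.7 and 102 at 2 h and 75.3, 78.9 and 78.9 at 6 h. Its groups were separate at each step, with log2 fold changes of -0.32 ± 0.05 at 2 h (edgeR adjusted p = 3.12e-04) and -0.67 ± 0.05 at 6 h (edgeR adjusted p = 7.19e-07). Tap2 had 109, 116 and 111 CPM untreated, 89.3, 89.9 and 90.1 at 2 h and 84.1, 90.6 and 89.5 at 6 h. Both treated groups lay below the untreated one and overlapped each other. Its changes were -0.32 ± 0.04 at 2 h and -0.34 ± 0.04 at 6 h, and the difference between the times was -0.03 ± 0.04 and not called (edgeR adjusted p = 0.656).

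Tap1 at chr17:34187553-34197225 on the plus strand and the inducible catalytic gene Psmb9 at chr17:34181987-34187764 on the minus strand are divergent neighbours whose annotated exons overlap, by 3.87% of the exon bases of Tap1 and 5.79% of those of Psmb9. The libraries do not keep the strand, so reads in that overlap cannot be assigned to one gene from their strand. The interval between their RefSeq starts is shown because both genes were among the 4 lower at 2 h. It is written on the plus strand. Capitals mark a CCAAT box (CCAAT, in 33.8% of all promoters) and a relaxed cAMP response element. The relaxed form is TGACGTCA with 2 bases left free (TGACGNNA, in 5.66% of all promoters).
Psmb9 and Tap1, chr17:34187331-34187555, plus strand: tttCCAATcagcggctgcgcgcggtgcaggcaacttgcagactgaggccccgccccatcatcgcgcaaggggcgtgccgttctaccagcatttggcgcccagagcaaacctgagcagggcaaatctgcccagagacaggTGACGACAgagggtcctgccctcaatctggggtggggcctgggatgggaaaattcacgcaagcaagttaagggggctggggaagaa

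The full cAMP response element, TGACGTCA, was found in 1.77% of all genes with a promoter entry. It was in 0 of the 17 class I and inducible genes and in 0 of the 11 core genes with such an entry.

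Tapbp encodes tapasin, which bridges TAP and the heavy chain. It had 863, 883 and 837 CPM untreated, 844, 682 and 781 at 2 h and 615, 562 and 618 at 6 h. The 2 h libraries overlapped the untreated ones and the 6 h libraries lay below all others, a change of -0.53 ± 0.07 (edgeR adjusted p = 6.05e-05). Tapbp overlaps other annotated genes over 29% of its exon bases. Erap1, the aminopeptidase that trims peptides in the endoplasmic reticulum, fell from 105, 97.4 and 105 CPM to 75.3, 70.5 and 73.4 CPM at 6 h (-0.49 ± 0.07, edgeR adjusted p = 5.82e-05). Tapbpl, which encodes the tapasin-related peptide editor, was lower at 6 h by a smaller amount (-0.21 ± 0.06, edgeR adjusted p = 0.00826). All 5 genes of this role were thus lower at 6 h, with a median of -0.49, and 2 of the 5 were lower at 2 h. Among all genes tested 25.7% were lower at 6 h and 19.2% at 2 h.

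**Figure D2:**
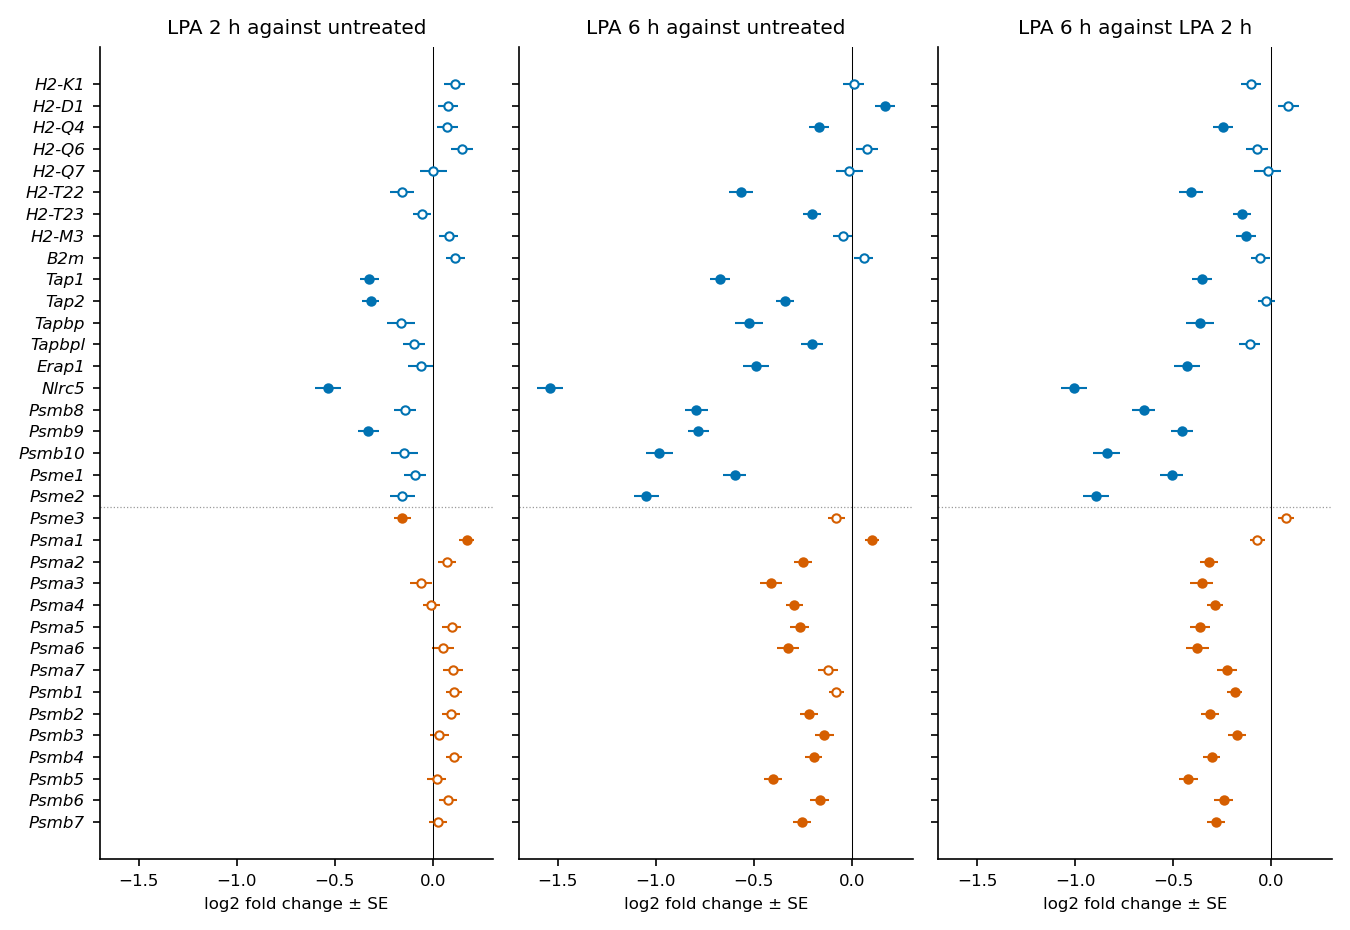
Log2 fold change with its standard error for each of the 35 genes in the 3 comparisons, with filled points for genes called at an adjusted p under 0.05 and open points for genes not called. Class I and inducible genes are blue, Psme3 and core genes are orange, and the fold changes at 6 h run from -1.54 for Nlrc5 to 0.17 for H2-D1.

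The inducible catalytic subunits take the places of constitutive ones in the beta ring: Psmb8 that of Psmb5, Psmb9 that of Psmb6 and Psmb10 that of Psmb7. Psmb8, which carries the chymotrypsin-like site, had 156, 157 and 143 CPM untreated, 148, 128 and 138 at 2 h and 86.3, 89.9 and 87.1 at 6 h. Its 2 h libraries overlapped the untreated ones and its 6 h libraries lay well below both, a log2 fold change of -0.79 ± 0.06 (edgeR adjusted p = 5.28e-07). Psmb9 had 48.5, 52.6 and 48.6 CPM untreated, 42.1, 37.7 and 39.5 at 2 h and 29.3, 29.7 and 28.1 at 6 h. It was the 1 inducible catalytic gene called at 2 h (-0.33 ± 0.05, edgeR adjusted p = 4.69e-04), and its change at 6 h was -0.78 ± 0.06 (edgeR adjusted p = 4.77e-07). Psmb10 had 83.5, 85.4 and 77.2 CPM untreated, 82.4, 67.2 and 73.3 at 2 h and 42.0, 42.2 and 40.4 at 6 h.

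Psmb10 thus overlapped the untreated libraries at 2 h and fell at 6 h (-0.98 ± 0.07, edgeR adjusted p = 4.72e-07). At 2 h neither Psmb8 (-0.14 ± 0.06) nor Psmb10 (-0.14 ± 0.07) was called (edgeR adjusted p = 0.065 and 0.113). Without 2 h replicate 1 both were called (edgeR adjusted p = 0.0252 and 0.0151). All 3 genes were lower at 6 h than at 2 h, by 0.45 to 0.84 on the log2 scale.

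The constitutive partners moved less. Psmb5 had 159, 174 and 164 CPM untreated, 168, 167 and 169 at 2 h and 120, 130 and 126 at 6 h, a change at 6 h of -0.40 ± 0.05 (edgeR adjusted p = 1.92e-05). It shares 54.1% of its 50-base stretches with other annotated genes, among them the pseudogene Psmb5-ps. Psmb6 had 152, 166 and 155 CPM untreated, 169, 162 and 168 at 2 h and 136, 140 and 146 at 6 h (-0.16 ± 0.05, edgeR adjusted p = 0.0121). Psmb7 had 89.6, 89.8 and 91.0 CPM untreated, 90.7, 89.4 and 95.5 at 2 h and 72.8, 75.6 and 78.2 at 6 h (-0.25 ± 0.04, edgeR adjusted p = 3.99e-04). For each of the 3 partners the 6 h libraries lay below all untreated and 2 h libraries, and no change at 2 h was called. The Psmb6 call was lost without untreated replicate 2 (edgeR adjusted p = 0.0523).

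**Figure D3:**
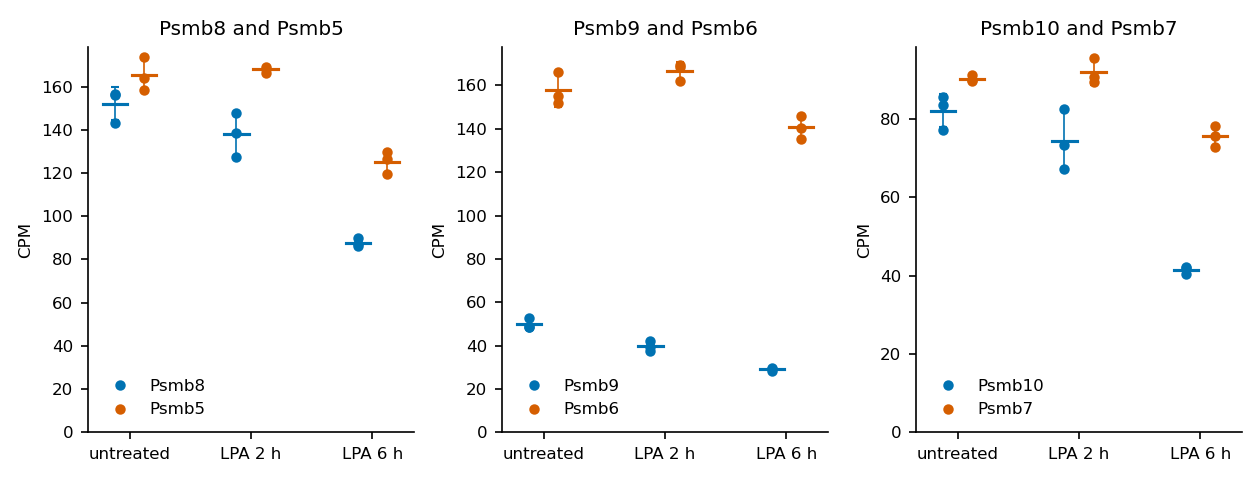
CPM of each inducible catalytic gene (blue) and of the constitutive gene whose place it takes (orange) in the 3 libraries of each group, with horizontal lines at the mean and vertical lines for the SD. From untreated cells to 6 h the distance widens between Psmb8 and Psmb5 and between Psmb10 and Psmb7. At 6 h Psmb10 stands between 40.4 and 42.2 CPM and Psmb7 between 72.8 and 78.2 CPM. Psmb9 and Psmb6 both fall, from means of 49.9 and 158 CPM to 29.0 and 141 CPM, with little change in their distance.

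The question of whether inducible subunits changed more than the constitutive ones was put to the ratio of the 2 genes within each library, which does not depend on how libraries are scaled. The log2 ratio of Psmb8 to Psmb5 was -0.12 ± 0.09 (SD, n = 3) untreated, -0.29 ± 0.10 at 2 h and -0.51 ± 0.04 at 6 h. The ratio of Psmb9 to Psmb6 was -1.66 ± 0.01, -2.07 ± 0.05 and -2.28 ± 0.09. The ratio of Psmb10 to Psmb7 was -0.14 ± 0.09, -0.31 ± 0.15 and -0.86 ± 0.08. All 3 ratios differed between the groups beyond the spread of their libraries. The exact permutation test of the F statistic between the 3 groups, over 1680 assignments, gave p = 0.00714, 0.00357 and 0.00714. Each was 0.0119 after Benjamini-Hochberg adjustment over 5 ratios. The p of 0.00357 is the smallest this design can give. With the 3 ratios centred and permuted within replicate numbers (replicate block) the adjusted exact permutation p was 0.0463 for each. Permuting within replicate numbers allows fewer assignments, so its smallest p is larger than 0.00357.

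From untreated cells to 6 h the ratios fell by 0.39 ± 0.06 (SE), 0.62 ± 0.05 and 0.73 ± 0.07 on the log2 scale, and the 6 h libraries lay below all untreated ones in each case (exact permutation p = 0.1, the smallest that 3 against 3 libraries allow). At 2 h only the Psmb9 to Psmb6 ratio was separate from the untreated libraries among these 3, with a difference of -0.41 ± 0.03 (exact permutation p = 0.1). The other two overlapped, with differences of -0.16 ± 0.08 and -0.17 ± 0.10 (exact permutation p = 0.2 for each).

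As shares of the pair per length of transcript, Psmb8 made up 33.7% ± 1.40 (SD, n = 3) of Psmb8 and Psmb5 in untreated cells, 31.2% ± 1.47 at 2 h and 27.9% ± 0.51 at 6 h. Psmb9 made up 15.7% ± 0.12 of Psmb9 and Psmb6, then 12.4% ± 0.38 and 10.9% ± 0.59. Psmb10 made up 44.6% ± 1.51 of Psmb10 and Psmb7, then 41.7% ± 2.54 and 32.8% ± 1.25. In all 3 groups the constitutive gene of each pair was thus the more abundant transcript. These are transcript levels, and particles were not measured.

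PA28 is a ring that caps the 20S core and opens its gate. Its interferon-inducible form is built from the products of Psme1 and Psme2, while Psme3 encodes the nuclear form. Psme1 had 160, 160 and 152 CPM untreated, 157, 134 and 153 at 2 h and 103, 106 and 102 at 6 h. Psme2 had 198, 212 and 196 CPM untreated, 184, 164 and 196 at 2 h and 91.9, 102 and 98.8 at 6 h. Both overlapped the untreated libraries at 2 h and lay far below them at 6 h, with log2 fold changes of -0.60 ± 0.06 (edgeR adjusted p = 4.25e-06) and -1.05 ± 0.07 (edgeR adjusted p = 2.09e-07). Psme2 shares 28.3% of its 50-base stretches with the annotated copy Psme2b.

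Psme3 had 87.4, 88.5 and 89.6 CPM untreated, 78.0, 79.1 and 81.6 at 2 h and 80.5, 85.0 and 85.7 at 6 h. It was below the untreated libraries at 2 h (-0.15 ± 0.04, edgeR adjusted p = 0.0115; adjusted p = 0.05 and not called without untreated replicate 3), and its change of -0.08 ± 0.04 at 6 h was not called (edgeR adjusted p = 0.133). The 2 h libraries of Psme3 were thus apart from the untreated ones, where those of Psme1 and Psme2 overlapped them. The 2 h change of Psme2 was of the same size (-0.16 ± 0.06, edgeR adjusted p = 0.0747), with a wider spread at 2 h. Its SD there was 16.1 CPM, against 1.84 CPM for Psme3. Psme1 changed by -0.09 ± 0.06 at 2 h (edgeR adjusted p = 0.242).

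The log2 ratio of Psme1 to Psme3 was 0.83 ± 0.06 (SD, n = 3) untreated, 0.89 ± 0.13 at 2 h and 0.31 ± 0.05 at 6 h (exact permutation p = 0.0179, adjusted p = 0.0223). That of Psme2 to Psme3 was 1.19 ± 0.06, 1.19 ± 0.11 and 0.22 ± 0.04 (exact permutation p = 0.0357, adjusted p = 0.0357). The ratios fell by 0.52 ± 0.04 and 0.97 ± 0.04 from untreated cells to 6 h, and the 2 h libraries overlapped the untreated ones. With the ratios of the counts of Psme1 and Psme2 to Psme3 centred and permuted within replicate numbers (replicate block) the adjusted exact permutation p was 0.0694 and 0.111, so neither ratio passed 0.05 there.

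**Figure D4:**
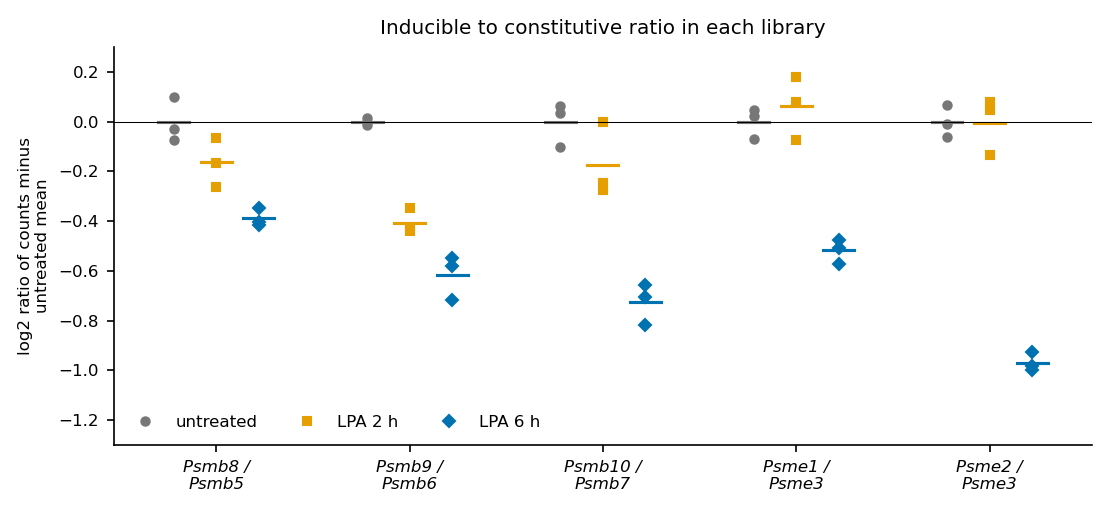
Log2 ratio of the counts of 2 genes in each library, minus the mean of the untreated libraries, for the 3 catalytic pairs and for Psme1 and Psme2 against Psme3, with horizontal lines at group means. All 6 h points lie below all untreated points, and at 2 h the Psmb9 to Psmb6 ratio alone does.

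The alpha ring genes encode the structural rings that gate the core. Psma1 was the 1 gene of this ring called higher, at both times. It had 137, 138 and 140 CPM untreated, 155, 156 and 156 at 2 h and 146, 149 and 150 at 6 h, with both treated groups above the untreated libraries. Its log2 fold change was 0.17 ± 0.04 at 2 h (edgeR adjusted p = 0.00297) and 0.10 ± 0.04 at 6 h (edgeR adjusted p = 0.0368). The 6 h call was lost on leaving out any one untreated or 6 h library (edgeR adjusted p = 0.0521 to 0.119) and with no filter on low counts (0.0663), while its 2 h call was kept without 2 h replicate 2.

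Of the other 6 alpha ring genes Psma7 was not called at 6 h, when 25.7% of all genes tested were lower. Psma2, Psma3, Psma4, Psma5 and Psma6 were lower at 6 h, by 0.25 to 0.41 on the log2 scale. The largest of these changes was that of Psma3, from 107, 110 and 106 CPM to 76.7, 81.3 and 84.1 CPM (-0.41 ± 0.06, edgeR adjusted p = 7.16e-05). Psma7 had 122, 134 and 122 CPM untreated and 110, 121 and 116 CPM at 6 h, below all untreated libraries (-0.12 ± 0.05, edgeR adjusted p = 0.0616). With a replicate block Psma7 was called (edgeR adjusted p = 0.0337).

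In the constitutive beta ring all 7 genes were lower at 6 h than at 2 h, against 24.4% of all genes tested. Of the 7, Psmb3 was not called there with total counts as the only scaling (edgeR adjusted p = 0.0586). Against untreated cells 6 of 7 were lower at 6 h, with a median of -0.19, where 25.7% of all genes were. Besides the 3 catalytic partners these were the structural genes Psmb2 (-0.22 ± 0.05, edgeR adjusted p = 0.00167), Psmb3 (-0.14 ± 0.05, edgeR adjusted p = 0.027) and Psmb4 (-0.19 ± 0.04, edgeR adjusted p = 0.0021). Psmb1 had 102, 101 and 99.5 CPM untreated, 109, 107 and 109 at 2 h and 96.3, 97.5 and 92.0 at 6 h. Its change at 6 h (-0.08 ± 0.04) was not called (edgeR adjusted p = 0.116), while 6 h was lower than 2 h (-0.19 ± 0.04, edgeR adjusted p = 0.00224). The Psmb3 call at 6 h was lost with total counts as the only scaling (edgeR adjusted p = 0.104), with no filter on low counts (0.0773), without untreated replicate 2 or 3 (0.0931 and 0.085), and without 6 h replicate 1 or 3 (0.082 and 0.0792).

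Other genes of the pathway were counted from lists. For each list here and below, the shares of all genes tested were 25.7% lower and 26.4% higher at 6 h. At 2 h they were 19.2% lower and 19.3% higher. The 19S regulatory particle recognises and unfolds tagged proteins, and of its 21 genes 10 were lower and 4 higher at 6 h (median -0.12), against 1 lower and 3 higher at 2 h. Psmd5, a chaperone of its assembly, fell from 51.9, 53.9 and 53.9 CPM to 41.3, 40.7 and 39.6 CPM at 6 h (-0.39 ± 0.04, edgeR adjusted p = 1.29e-05). Psmd10, another such chaperone, was lower at 6 h by 0.57 ± 0.07 on the log2 scale and was not called at 2 h (edgeR adjusted p = 1.84e-05 and 0.894).

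Of 9 assembly factors and other regulators 4 were lower and 1 was higher at 6 h. The higher one was Psmf1, a proteasome inhibitor, with 25.4, 23.7 and 23.5 CPM untreated and 31.1, 33.0 and 32.6 at 6 h (0.42 ± 0.05, edgeR adjusted p = 2.81e-05), and it was also higher at 2 h (0.32 ± 0.05). Pomp, the maturation factor of the core, fell from 135, 139 and 141 CPM to 111, 112 and 110 CPM (-0.32 ± 0.05, edgeR adjusted p = 1.44e-04). Of 8 genes for chaperones and channels of the endoplasmic reticulum 5 were lower at 6 h and 0 higher, among them the translocon gene Sec61b (-0.51 ± 0.06) and the calnexin gene Canx (-0.29 ± 0.07).

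Among 6 cytosolic and endosomal peptidases 2 were lower and 1 higher at 6 h, near the shares of all genes. Lap3, a leucine aminopeptidase, fell from 71.1, 68.9 and 67.9 CPM to 54.5, 52.4 and 52.0 CPM (-0.39 ± 0.05, edgeR adjusted p = 2.74e-05). Lnpep, an endosomal aminopeptidase linked to cross-presentation, rose from 111, 94.9 and 110 CPM to 143, 131 and 138 CPM (0.38 ± 0.06, edgeR adjusted p = 2.14e-04). Lnpep thus moved opposite to Erap1.

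Of 9 tested class I and class I-like genes outside the 35, 4 were lower and 1 higher at 6 h. H2-M2 fell from 504, 579 and 477 CPM to 147, 185 and 156 CPM (-1.68 ± 0.10, edgeR adjusted p = 6.91e-07). H2-T24 fell from 41.4, 39.96 and 40.3 CPM to 26.3, 18.95 and 28.9 CPM at 2 h and 9.10, 9.08 and 9.52 CPM at 6 h (-2.13 ± 0.13 at 6 h, edgeR adjusted p = 1.3e-06). Both changes exceeded in size that of each of the 8 heavy chains described above.

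Of 15 genes for factors known to act at class I promoters 9 were lower and 2 higher at 6 h, and 8 were lower and 2 higher at 2 h. Stat2, a subunit of the interferon-activated complex ISGF3, had 193, 193 and 190 CPM untreated, 119, 102 and 116 at 2 h and 78.7, 80.8 and 84.8 at 6 h (-1.24 ± 0.06 at 6 h, edgeR adjusted p = 2.01e-08). Irf9, the DNA-binding subunit of the same complex, had 91.8, 87.6 and 88.4 CPM untreated, 73.4, 60.9 and 73.2 at 2 h and 34.9, 37.3 and 37.2 at 6 h (-1.29 ± 0.07, edgeR adjusted p = 5.62e-08). In both genes the 3 groups were separate.

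RefSeq promoters were found for 29 of the 35 genes, and the 6 without an entry were Nlrc5, Psmb1, Psmb2, Psmb7, Tap2 and Tapbpl. The class I ISRE letters were in the windows of 6 of 17 class I and inducible genes, which were the 6 heavy chain genes shown above, and of 1 of 11 core genes, Psmb6. The ISRE consensus was in 3 of 17, H2-T22, H2-T23 and B2m, and in 1 of 11, Psmb3, a search added after the data were seen. The NF-kB core was in 5 of 17 and 0 of 11. The letters of an interferon gamma-activated site (GAS) core, TTCNNNGAA, were in 2 of 17, Psmb8 and H2-M3, and in 0 of 11. The CCAAT box was in 12 of 17 and 6 of 11, and the relaxed cAMP response element in 4 of 17 and 4 of 11. The antioxidant response element (ARE) core, TGACNNNGC, was in 2 of 17 and 2 of 11. Of all 27025 genes with an entry, 7.3% held the class I ISRE letters, 3.46% the ISRE consensus and 5.61% the NF-kB core. The GAS core was in 8.13%, the CCAAT box in 37.5%, the relaxed cAMP response element in 6.5% and the ARE core in 11.5%. The windows of Psmb9, Psmb10, Psme1, Psme2, Tap1, Tapbp and Erap1, which fell at 6 h, held none of the letters of either ISRE form, NF-kB or GAS. This says only that these letters are not in these windows.

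**Figure D5:**
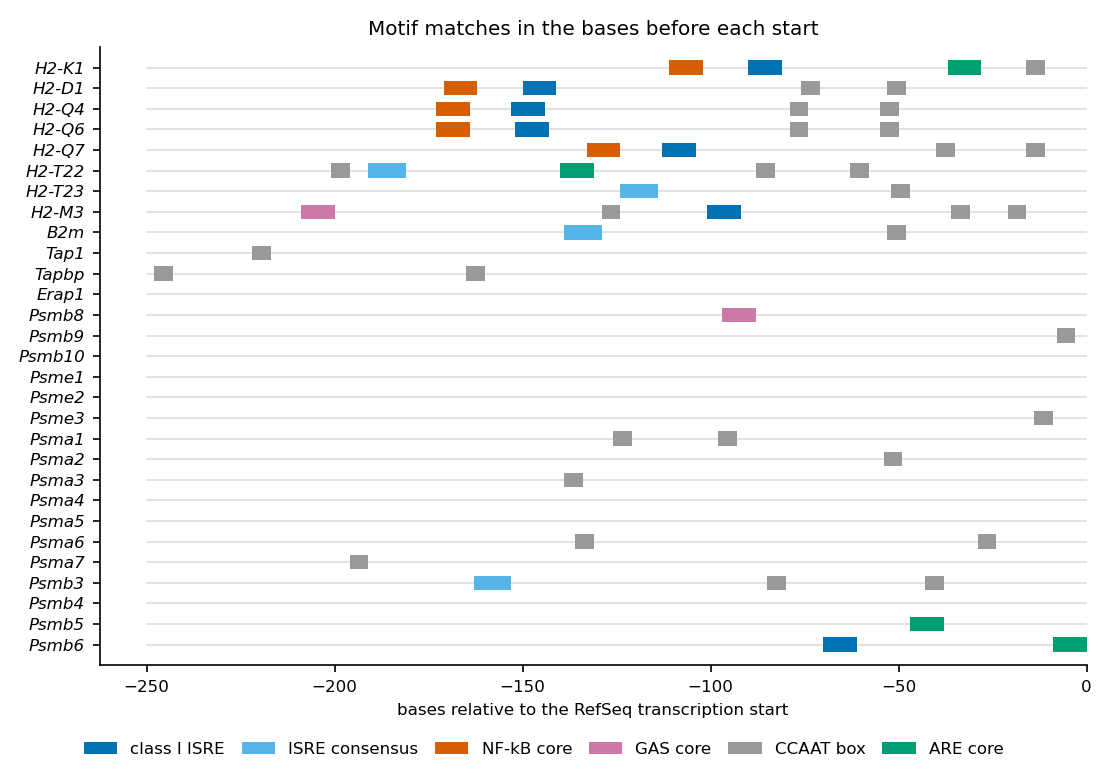
Position of letter matches in the 250 bases before one RefSeq start of each of the 29 genes with a promoter entry, in bases from the start, for the class I form and the consensus of the ISRE, the NF-kB, GAS and ARE cores and the CCAAT box (relaxed cAMP response elements are not drawn). The NF-kB and class I ISRE matches of 5 heavy chain genes lie side by side, from 173 to 82 bases before the start.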

How the data were processed

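RNA-seq of 9 BMDC libraries, 3 per group, was made with a non-stranded protocol, per the labels' protocols. The authors deposited whole-number counts per gene, unscaled. RSEM 1.2.3, DESeq2 and build mm10 are named in the submitters' processing notes, and RSEM shares ambiguous reads out among the transcripts they fit. Neither aligner nor annotation release is given in the sources used here.

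Transcript identifiers were matched to GENCODE genes of GRCm38. Of 38887 rows, 37776 matched 1 gene (98.46% of counts), 176 several (1.40%) and 935 none (0.141%). Genes were filtered (filterByExpr, minimum count 10, minimum total 15), scaled with TMM factors (0.974 to 1.03) and fitted over all 9 libraries with edgeR 4.0.16 (robust glmQLFit, glmQLFTest, R 4.3.3), without covariates. Calls were made at a Benjamini-Hochberg adjusted p under 0.05 over 14363 genes. The standard error is the log2 fold change over the square root of F. Ratios used counts plus 0.5. CPM per kb used the principal transcript. Sequence sharing was counted over stretches of 50 bases.

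Members and lists were chosen with earlier results of these data known. All members were named, and of each other list the 2 genes with the smallest p at 6 h.

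Deviations of same-numbered libraries correlated at 0.178, 0.144 and 0.151 for 6 h against untreated. Differently numbered libraries were not compared and the labels give no pairing, so whether the numbers pair the libraries is not known. The main tests therefore used no pairing, and the replicate block is given as an alternative. Chi-square per degree of freedom between replicates ran from 7.44 to 33.4, so no library repeats another.

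In simulated counts for 14224 genes at 6 h against untreated, 38.8%, 63.6% and 87.7% of 1.25-fold, 1.5-fold and 2-fold changes were called, and unchanged genes made up 6.02% of calls. At 2 h the shares were 26.6%, 66.7% and 90.3%, with 7.14%. These shares are over genes of all levels. The simulation changed far fewer genes than the data show, with 133 calls at 6 h against 3786 higher and 3686 lower. Adjustment is stricter where fewer genes change, so these shares may be too low for the data. The core genes changed by less than 1.25-fold at 2 h, so how often such changes are missed was not simulated. The alternatives were other scaling (DESeq2 size factors, total counts, upper quartile), DESeq2 1.42.0 and limma-voom (limma 3.58.1), other filters (none, or a mean count of 10), a replicate block, a fit to the 6 libraries of a comparison, each replicate left out and, for ratios, 5 added to counts.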

Additional observations from a re-analysis of the deposited data

Results flagged for a closer look

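For 5 core genes every 2 h library lay above, and every 6 h library below, all untreated libraries, so their direction against untreated cells differed between the times. The share of all tested genes with this pattern was not counted, so whether 5 is unusual cannot be told. The log2 fold changes at 2 h and 6 h were 0.0703 and -0.25 for Psma2, 0.10 and -0.27 for Psma5, 0.11 and -0.0796 for Psmb1, 0.0911 and -0.22 for Psmb2, and 0.11 and -0.19 for Psmb4. None of the 5 changes at 2 h was called by edgeR as fitted, and the change of Psmb1 at 6 h was not called either. At 2 h Psmb1 (edgeR adjusted p = 0.0501) was called higher with a mean count of at least 10 (0.0496), the replicate block (0.0395), DESeq2 (0.048), limma-voom (0.0486) and without 2 h replicate 2 (0.0472). Psmb4 was called higher at 2 h with the replicate block (0.0387) and without untreated replicate 2 (0.0263). The difference between the times was called for each, at -0.32 for Psma2, -0.36 for Psma5, -0.19 for Psmb1, -0.31 for Psmb2 and -0.30 for Psmb4 (edgeR adjusted p from 1.53e-04 to 0.00224). The 5 genes were picked because these same libraries were apart, so this difference follows from the choice and is no separate support. Psma2 had 90.2, 90.2 and 85.4 CPM untreated, 91.6, 91.1 and 96.5 at 2 h and 72.1, 77.7 and 73.9 at 6 h. Psmb4 had 117, 125 and 115 CPM untreated, 127, 128 and 129 at 2 h and 103, 106 and 103 at 6 h. Psma5 shares 50% of its 50-base stretches with other annotated genes, so its counts depend on the division of shared reads. Both contrasts use the same untreated libraries, and no cause was tested.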

How the results depend on the processing

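Of 525 checks of single genes per comparison, 498 (6 h against untreated), 481 (2 h) and 505 (6 h against 2 h) kept direction and side of the threshold. Of 20 class I and inducible genes, the 4 lower at 2 h became 8 with total counts, 5 with DESeq2, 6 with the replicate block and 4 to 8 with single libraries left out. The 0 higher at 2 h became 2 with the replicate block (0 to 2 with libraries left out), the 1 higher at 6 h 0 to 2, and the 0 higher between the times 1 with total counts. The 1 core gene higher at 2 h became 2 with DESeq2, limma-voom or a mean of at least 10 counts, 3 with the replicate block and 1 to 3 with libraries left out. The 1 higher at 6 h became 0 with no filter and 0 with libraries left out. The replicate block left the differences of the Psme1 and Psme2 ratios at -0.52 and -0.97 without passing 0.05 and, at 6 h against untreated, changed no other call than that of Psma7. At 2 h the correlations of same-numbered libraries with untreated ones were 0.165, 0.09 and 0.184. The cause of these changes was not tested.

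Sign changes were all in values that were not called. H2-Q7 at 2 h was -0.0015 with DESeq2 size factors and with DESeq2, -0.0098 with total counts, -0.0009 with upper quartile scaling and -0.0394 to 0.0779 with libraries left out. With total counts H2-Q7 was 0.0243 at 6 h and 0.0341 between the times, and with libraries left out -0.0591 to 0.0283 and -0.0951 to 0.0212. Tap2 between the times was 0.0272 with total counts. Psma4 at 2 h was 0.0014 with no filter and 0.0013 with 6 libraries. With libraries left out, 2 h values ran from -0.033 to 0.0223 for Psma4, -0.1154 to 0.0184 for Erap1, -0.0066 to 0.0644 for Psmb3, -0.0097 to 0.0563 for Psmb5, -0.018 to 0.0964 for Psma6 and -0.0025 to 0.0464 for Psmb7, and H2-K1 at 6 h from -0.0222 to 0.0358. Total counts moved the median of all genes by at most 0.0527. Each symbol had 1 row, so summing rows was not run.

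Between the times the call of H2-M3 was lost with total counts, with DESeq2, with no filter, with 6 libraries and without 4 single libraries, and that of H2-T23 with total counts (edgeR adjusted p = 0.0887) and without 2 h replicate 1 or 6 h replicate 1 (0.0695 and 0.06). That of Psmb3 was lost with total counts (0.0586).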
